A study of Drosophila melanogaster with 6 samples.

Results

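The subject here is the binding of endogenous CrebA in whole Oregon R embryos of Drosophila melanogaster, described through the complete list of ChIP-seq peaks that the authors called for this strain. All 14039 peaks of the list were taken, out of 28419 peaks in the 3 lists of the series. In Oregon R embryos, a wild-type laboratory strain with no transgene named in the labels, untagged CrebA was precipitated with an antiserum to the protein, and input DNA of the same strain, prepared without antibody, accompanied it. The other 2 experiments used a UAS transgene for CrebA with a C-terminal GFP tag, precipitated through the tag, in embryos of the genotypes fkh-GAL4::UAS-CrebA-GFP, with 6464 peaks, and sage-GAL4::UAS-CrebA-GFP, with 7916 peaks, each beside its own input. Each driver works in more than 1 tissue, and the gland that makes saliva is the tissue common to both, per the series description; their lists serve here as background only. All 6 samples came from embryos of stages 11 to 16, laid over 8 hours and aged for 11 hours, with chromatin fixed in 1.8% formaldehyde and taken from 2 collections. Each group has 1 library, so no value below has a replicate check and no test between conditions was made. A whole embryo mixes tissues, and a site bound weakly in many cells cannot be told apart from a site bound strongly in few.

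CrebA is a basic leucine zipper (bZIP) transcription factor of the family that includes the mammalian CREB3-like proteins. It is abundant in the embryonic salivary gland and is also present in the trachea, the epidermis and the proventriculus, all of which secrete large amounts of protein or cuticle. It is known to raise the expression of genes for the secretory pathway, the route by which new proteins enter the endoplasmic reticulum (ER), are folded and glycosylated, leave in COPII vesicles and pass through the Golgi apparatus, while COPI vesicles carry escaped components back.

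The Oregon R peaks were mostly narrow, with a median width of 478 bp and the lower and upper quartiles at 272 and 953 bp. The widest spanned 18489 bp. The height of a peak is given as its fold enrichment, the authors' ratio of signal at the summit over the local background of their peak caller. It had a median of 1.88 and ran between 1.25 and 3.98, so even the highest peaks stood less than 4 times above background. A gene was called bound when a summit lay within 1000 bp of either of its ends, since the gene table used gives no strand and the start could not be told from the end. By this rule 7548 summits, 53.8% of the list (exact 95% interval 52.9 to 54.6, counting error only), lay at the end of a protein-coding gene. A further 4955 summits, 35.3%, lay elsewhere inside a gene and 1509, 10.7%, lay between genes. The summits crowded close to the ends, with 3474 of them within 100 bp.

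Position changed with height. The list was cut into 10 nearly equal parts by fold, from decile 1, the lowest, to decile 10, the highest, which began at a fold of 2.60. The share of summits at gene ends was 46.7% in decile 1, 40.8% in decile 3, 61.0% in decile 7, 68.5% in decile 9 and 62.2% in decile 10. The median width was 227 bp in decile 1 and 1106 bp in decile 10. Peaks between genes were least frequent in decile 9, at 7.76%, and made up 11.5% of decile 10. The highest decile thus held a smaller share of gene-end peaks than the decile below it, and among the 100 strongest peaks 59 lay at gene ends, 20 elsewhere inside genes and 21 between genes.

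**Figure D1:**
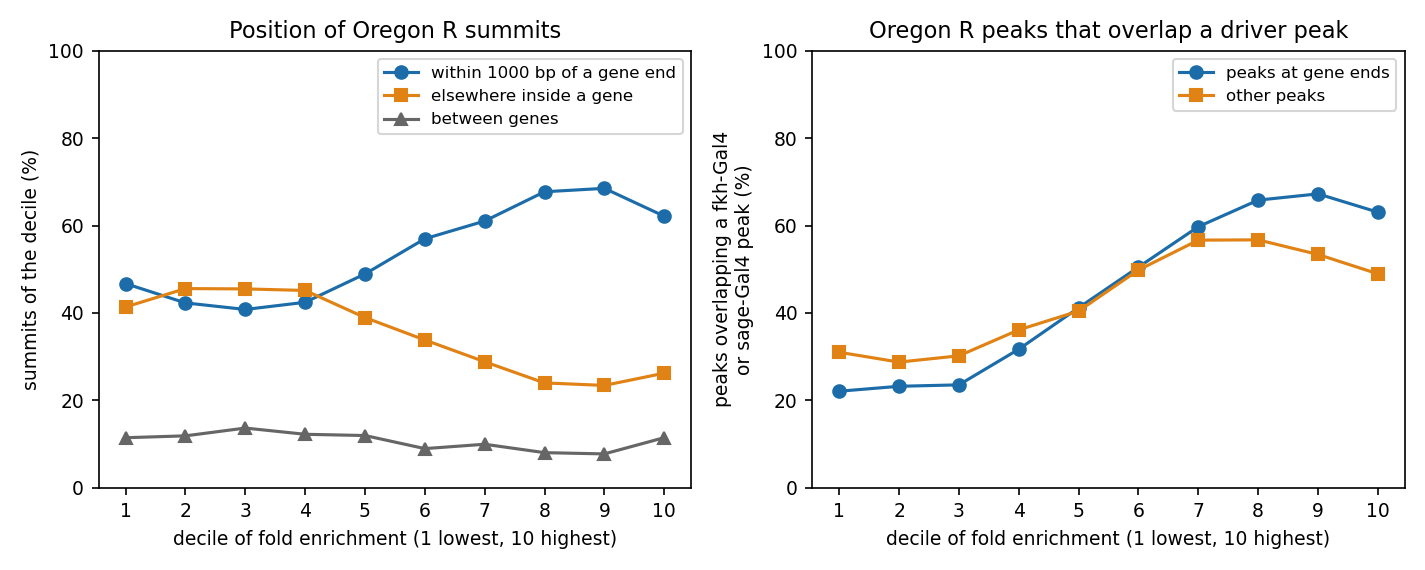
The horizontal axis of both panels gives the decile of fold enrichment of the Oregon R peaks, from 1 (lowest) to 10 (highest). The left panel shows the percentage of summits within 1000 bp of a gene end, elsewhere inside a gene or between genes; the right panel shows the percentage of peaks that overlap a fkh-Gal4 or sage-Gal4 peak, for peaks at gene ends and for all other peaks, 63.1% and 49.0% in decile 10. The gene-end share reaches 68.5% in decile 9 and is 62.2% in decile 10.

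The X chromosome held more than its share of the strong peaks. It carried 16.1% of all Oregon R peaks but 32.9% of the highest decile and 7.12% of the lowest. Its median fold was 2.03, against 1.84 to 1.87 on the arms of chromosomes 2 and 3. In the driver lists X carried 28.0% of the highest decile and 19.1% of all peaks for fkh-Gal4, and 29.5% and 17.8% for sage-Gal4. Many folds also lay a whole number of steps of 0.0135 below the highest fold (within 0.02 of the step), as they do where peaks share 1 background value. The step was picked to place most peaks on this grid, and the highest peak lies on it by definition. Peaks on the grid numbered 2805 of the 14039, while 3.20% of the list lay on a grid placed between the steps. They made up 41.6% of the X peaks, 16.0% of those on chromosomes 2 and 3, 60 of the 100 strongest peaks and all 12 of the 12 strongest. The part of this shared value in the ranking by fold was not tested, so the main counts that rest on the highest decile are given below also on X and off X.

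The 12 strongest peaks were not, in the main, at gene ends. Only 3 of the 12 were, 5 lay inside genes away from their ends, 4 lay between genes, and 6 of the 12 were on X. The highest fold, 3.98, was reached at 2 places. One was a peak of 1528 bp between genes on chromosome arm 3L (6652209 to 6653736, dm6), whose nearest gene end, at 11164 bp, belongs to eIF4E4, a gene for a cap-binding translation factor. The other was a peak of 1679 bp on X (908516 to 910194) inside CG43867. A second peak in CG43867, on X from 842776 to 844260, had a fold of 3.97, so this gene held 2 of the 3 highest peaks of the list.

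The other strong peaks away from gene ends lay in or near genes of various kinds. A fold of 3.89 was found at a peak of 478 bp inside Hk, which encodes a subunit of the Shaker potassium channel, at 13306 bp from its nearer end. The same fold was found 1058 bp from Ptp99A, a receptor tyrosine phosphatase gene of axon guidance, and inside CG44837. A peak inside Sp1, which encodes a zinc finger transcription factor of leg development, had a fold of 3.96. The remaining peaks of this kind lay near CG45691, with a fold of 3.91, and near CG11458, with a fold of 3.87. Of these 9 peaks away from gene ends, 8 had no peak of either driver; the exception was the first CG43867 peak, with a fold of 1.79 in the sage-Gal4 list.

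The 3 strongest gene-end peaks belonged to beat-Vc, CrebB and Sec22. The peak near beat-Vc, a member of the beaten path family of neuronal adhesion genes, was on 3R from 12783100 to 12784499, with its summit 673 bp from the gene, a fold of 3.86 and no driver peak. The peak at CrebB, which encodes the fly CREB protein of another branch of the bZIP family, was on X from 18365858 to 18367674, with its summit 125 bp from the gene and a fold of 3.86. Driver peaks there had folds of 2.80 with fkh-Gal4 and 3.55 with sage-Gal4. The peak at Sec22, which encodes a SNARE of transport between the ER and the Golgi, was on X from 805225 to 807558, with its summit 14 bp from the gene end and a fold of 3.85, beside folds of 3.28 with fkh-Gal4 and 2.86 with sage-Gal4.

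Some of the next strongest peaks at gene ends are given here, picked after their values were seen. Octbeta2R, an octopamine receptor gene, had a fold of 3.77, Sema2b, a secreted guidance cue, 3.75, and Sh, the Shaker potassium channel itself, 3.71. CtsB, a cathepsin gene, had a fold of 3.74 in a peak of 3427 bp, and LpR1, a lipophorin receptor gene, had 3.69. PIG-L, named for an enzyme of the synthesis of GPI anchors in the ER, had a fold of 3.66, beside 3.02 with fkh-Gal4 and 3.22 with sage-Gal4.

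The widest peaks were a different set. Of the 12 widest, 11 lay on chromosome 4, the small and largely heterochromatic chromosome, and the first was a peak of 18489 bp over CaMKII, a kinase gene, with a fold of 2.21. Next came 13315 bp over Eph, a guidance receptor gene, and 12411 bp over gw, which encodes a partner of Argonaute in miRNA silencing. Of the 70 peaks over 5000 bp, 32 were on chromosome 4, where peaks covered 36.3% of the stretch between the first and the last of them, against 7.14% to 8.63% on the other large arms. Oregon R had 294 peaks on this chromosome, against 36 with fkh-Gal4 and 28 with sage-Gal4, and neither driver list held a peak over 5000 bp there.

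Off chromosome 4, the widest Oregon R peak covered 10200 bp of X (2298631 to 2308830) over Raf, the kinase gene of the receptor tyrosine kinase pathway, with a fold of 2.04, beside 2.15 with fkh-Gal4 and 3.17 with sage-Gal4. The next were 7821 bp over hang, 7729 bp at stx and ras, 7654 bp at Teh1 and 7401 bp over Cdk4. Genes of the ER were also among the first 12 of this set. Surf4, a cargo receptor gene of ER exit, had a peak of 7089 bp with a fold of 2.64, and Rtnl1, which encodes a protein that shapes ER tubules, had one of 6934 bp with a fold of 2.85. Of these 12 peaks off chromosome 4, 11 overlapped peaks of both drivers, and the peak of 6616 bp over mld overlapped a peak of sage-Gal4 alone.

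**Figure D2:**
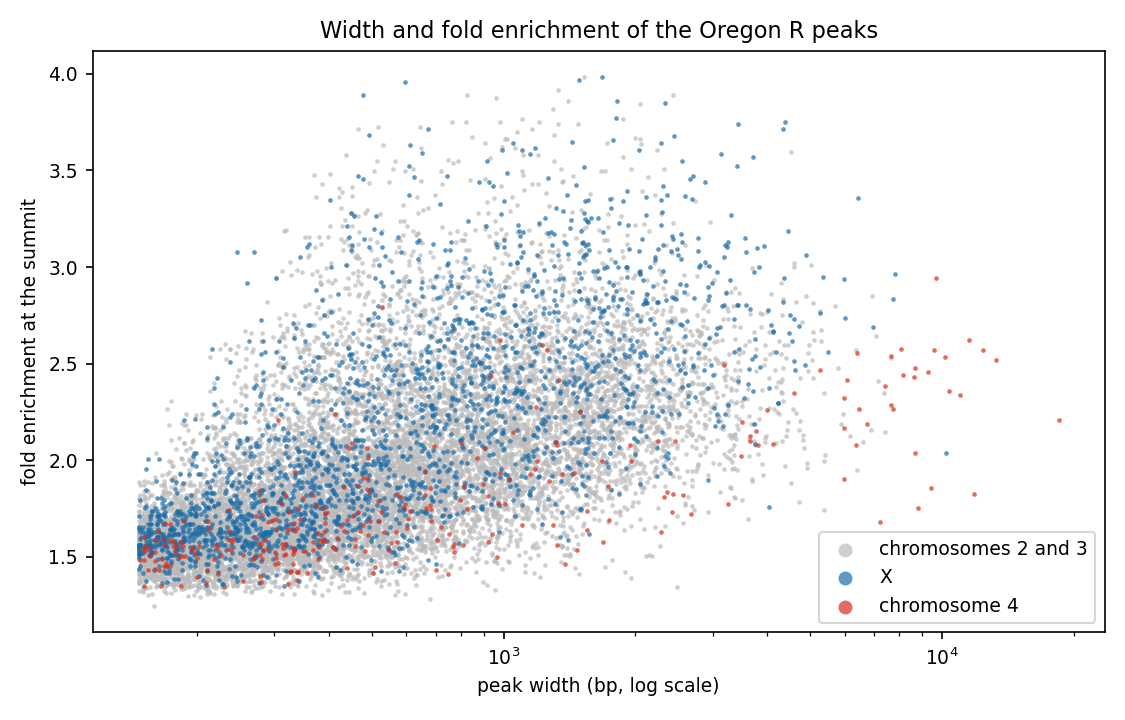
Each point is an Oregon R peak, with its width in bp on a log axis and the fold enrichment at its summit on the vertical axis, coloured by chromosome. The peaks of chromosome 4 reach 18489 bp at moderate folds, while the highest folds, up to 3.98, are found on X and on chromosomes 2 and 3, at widths of 478 to 2432 bp for the 12 strongest.

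Binding at gene ends was common, which sets the scale for every list of genes. Of 13946 protein-coding genes, 8698 were bound, which is 62.4% (exact interval 61.6 to 63.2). A summit of the highest fold decile lay at 1375 genes, 9.86% of all, called strong below. The fold of the highest summit at a bound gene had a median of 2.16. Many genes shared a summit with a neighbour, since 3790 gene-end summits served 2 genes and 768 served 3 or more, and 2413 genes were bound only through a summit nearer to the end of another gene. A list in which about 62.4% of the genes were bound, or 9.86% were strong, therefore stood where all genes stood.

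Genes of the secretory pathway were bound more often than that. Of 144 genes in 7 lists of the pathway, 136 were bound, 94.4% (exact interval 89.3 to 97.6), and 46 were strong, 31.9% (24.4 to 40.2), against 62.4% and 9.86% of all protein-coding genes. Their median fold was 2.46, against 2.16 for all bound genes, and their median peak width was 1772 bp, against 918 bp. The strong share was also higher for the pathway on each side of the X split. On X 18 of 27 pathway genes were strong, 66.7%, against 23.3% of all X genes, and off X 28 of 117 were, 23.9%, against 7.35%. Of the 46 strong genes, 45 had a peak that overlapped a driver peak by 1 bp or more, while 920 of the 1375 strong genes overall did. Wide peaks meet this rule more easily, and no stricter rule was applied to these genes. These lists, like the others below, were chosen with earlier results of these data known. Their shares and intervals are therefore descriptions and not a test.

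Entry into the ER was covered almost completely. In the list for translocation and signal peptide processing 21 of 22 genes were bound and 10 were strong, with a median fold of 2.60 and a median peak width of 3034 bp. Sec61gamma, a subunit of the channel through which new proteins enter the ER, had a fold of 3.36 in a peak of 6433 bp on X (19640000 to 19646432), with the summit 18 bp from the gene. Its partners Sec61beta, with a fold of 2.71, and Sec61alpha, with 2.60 just below the highest decile, were also bound. SrpRalpha, the receptor for the signal recognition particle, had a fold of 3.17 and TRAM, a membrane protein beside the channel, had 3.13 with 3 summits at its ends. Spase25, a subunit of the signal peptidase that trims the entering chains, was the only member without a summit.

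Both vesicle coats were bound throughout. All 23 genes of the COPII list were bound, 10 of them strong, with a median fold of 2.55. After Sec22, the highest were the cargo receptor genes p24-2, with a fold of 3.55, and eca, with 3.51, although each of these summits was nearer to the end of another gene. Sec16, which organises the sites where COPII vesicles form, had a fold of 3.01, and the coat subunits Sec13, Sec31 and Sec23 had folds of 2.94, 2.58 and 2.55. All 15 genes of the COPI list were bound and 9 were strong, the highest strong share of any list, with a median fold of 2.74. Among them betaCOP had a fold of 3.42, deltaCOP 3.09, beta'COP 2.84, gammaCOP 2.74 and alphaCOP 2.67, all subunits of the coat. The exchange factor garz, which activates Arf1 to start the coat, had 3.23 at a summit nearer to CG8841, and Arf1 itself had 2.53. Off X, 53.8% of the COPI genes, 29.4% of the COPII genes and 35.3% of the translocation genes were strong, against 7.35% of all genes.

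Folding and N-glycosylation genes were bound nearly as often, with median folds of 2.48 and 2.38. Of 18 ER chaperone genes 17 were bound and 6 were strong, led by CG7872 with a fold of 3.20 and Grp170, a large chaperone of the Hsp70 class, with 2.83 at a summit nearer to CG2924. The oxidase gene Ero1L, which passes oxidising power to protein disulfide isomerase, had 2.70, and Pdi, that isomerase, had 2.64. The exception was Hsc70-3, the fly BiP, which had no summit within 1000 bp of an end but 3 summits inside the gene, the highest with a fold of 3.12 at 1689 bp from an end. Of 21 genes of N-glycosylation 20 were bound and 4 were strong, 3 of them on X. Off X 1 of 15 was strong, 6.67%, against 7.35% of all genes. The strong genes included Stt3A, the catalytic subunit of the enzyme that attaches the glycan, with 2.85, and its subunits OstDelta, with 2.75, and Ost48, with 2.66. The summit at xit, with a fold of 2.91, was nearer to Nf-YC and was the only one of the 46 strong pathway summits without a driver peak.

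Golgi genes and O-glycosylation genes had the lowest median folds of the 7 lists, 2.32 and 2.26. Among 30 Golgi tethers and SNAREs 27 were bound and 5 were strong, GM130, a tether of the cis Golgi, with a fold of 2.88, Cog3, Cog8 and Cog1 of the COG complex with 2.81, 2.75 and 2.62, and p115, whose summit was nearer to other genes, with 2.80. The complex was not bound as a whole, since Cog7 had no summit. Cog6 was bound, at a fold of 1.42. Among 16 genes of O-glycosylation and sulfation 14 were bound and 2 were strong. These were pip, a sulfotransferase gene with a salivary gland transcript, with a fold of 2.67, and Pgant7, which adds the first sugar of O-glycans, with 2.62. Off X 14.3% of the Golgi genes and 7.14% of the O-glycosylation genes were strong, against 7.35% of all genes. Pgant5 and Pgant8, of the same enzyme family, were not bound.

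**Figure D3:**
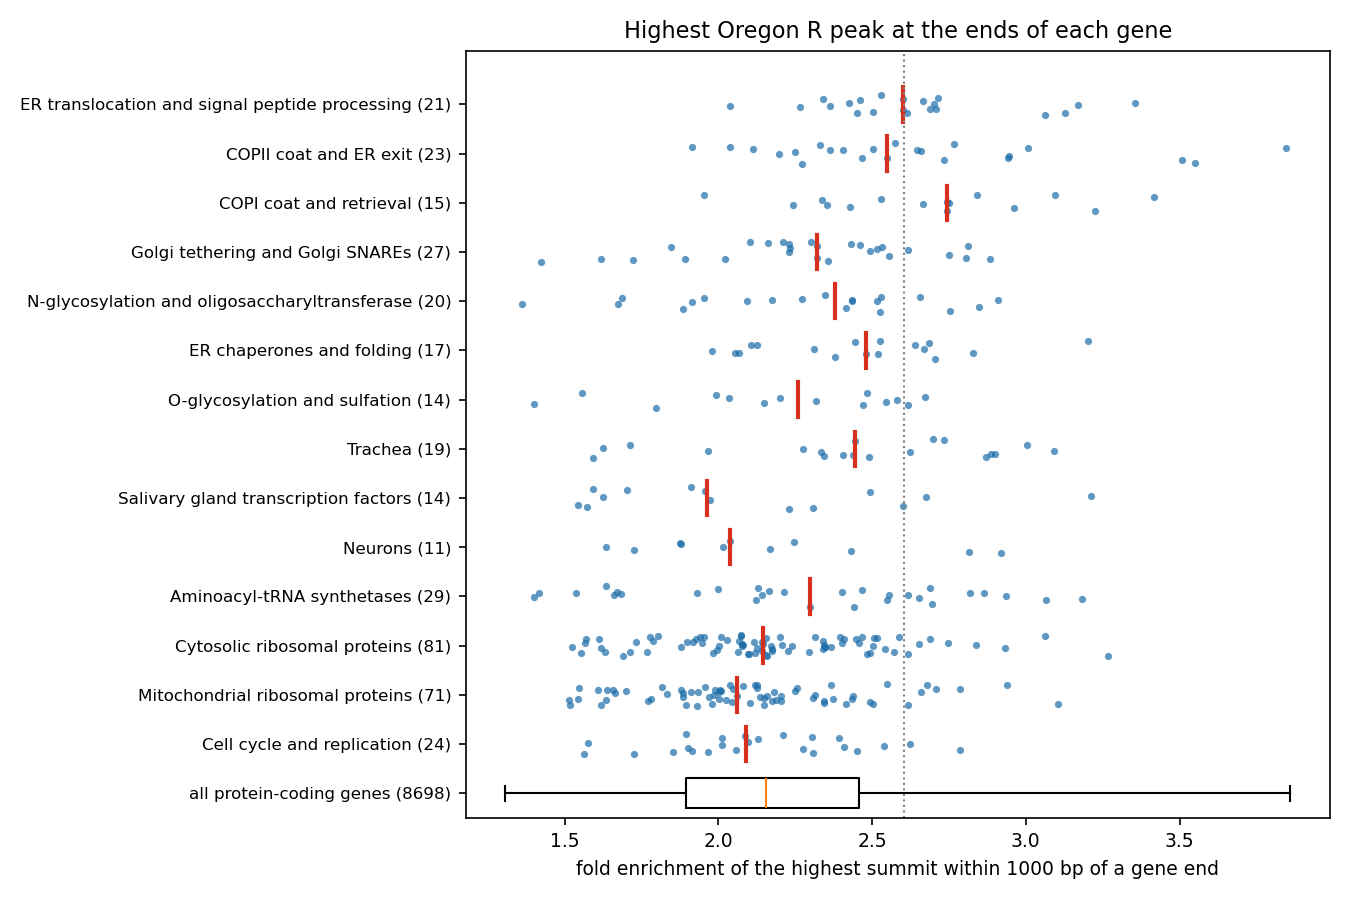
Each point is a bound gene, placed by the fold enrichment of its highest Oregon R summit within 1000 bp of a gene end; the number of bound genes is in brackets, red bars are medians, and the box of all bound protein-coding genes shows median, quartiles and range. The dotted line is the start of the highest decile, 2.60. Of the lists shown, COPI has the highest median, 2.74, against 2.16 for all bound genes.

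In the list for the unfolded protein response and ER degradation 16 of 17 genes were bound, 94.1%, and 2 were strong, 11.8%, against 9.86% of all genes. Edem1, which marks misfolded glycoproteins for degradation, had a fold of 3.35. Its summit lay inside the gene, 673 bp from an end and nearer to the end of another gene. Xbp1, the bZIP factor of the response, had 2.67 in a peak of 5314 bp with the summit inside the gene, 103 bp from an end. The sensors Ire1, PEK and Atf6 had folds of 2.17, 2.03 and 1.99, near or below the 2.16 of all bound genes.

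Transcription factors of the salivary gland were nearly all bound, mostly by peaks of low fold. Of 15 genes 14 were bound, 93.3%, against 62.4% of all genes, with a median fold of 1.96, below the 2.16 of all bound genes. The 2 strong genes were exd, on X, and Xbp1, 13.3%, against 9.86% of all genes. Off X 1 of 14 was strong, 7.14%, against 7.35% of all genes. The homeodomain cofactor gene exd was highest with 3.21, at a summit 458 bp away that was nearer to CG8939. fkh, the FoxA gene required for the gland, had 2.60, just below the highest decile, with driver folds of 1.91 in fkh-Gal4 and 2.81 in sage-Gal4. sens, an anti-apoptotic regulator in the gland, had 2.49. hkb, trh and hth had folds of 1.70, 1.59 and 1.54, and sage, the gland-specific bHLH gene, had no summit at its ends or inside it.

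CrebA itself carried 6 nearest summits of modest height, with its gene on 3L from 15535395 to 15553214. A summit 67 bp from 1 end had a fold of 1.91, one 892 bp away had 1.85, and one 641 bp away had 1.56. The summit 67 bp away had driver folds of 1.54 with fkh-Gal4 and 2.51 with sage-Gal4. The one 892 bp away had 2.01 and 2.51, and the one 641 bp away had no driver peak. The other 3 Oregon R summits had folds of 1.56, 1.42 and 1.45 and were 1802, 1312 and 4413 bp from an end. None of the 6 reached the median fold of bound genes.

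The other tissues known to make CrebA were bound unevenly. Of 20 tracheal genes 19 were bound and 8 were strong, 40.0% (exact interval 19.1 to 63.9), against 62.4% and 9.86% of all genes, and none of the 20 lies on X. The highest folds in the list were those of pio, uif, Gasp and serp. pio, a secreted ZP-domain protein gene of tube formation, had a fold of 3.09 and 2 summits at its ends. uif, a large transmembrane protein gene, had 3.01, and Gasp, a chitin-binding protein gene of the tube lumen, had 2.90. The chitin deacetylase genes serp and verm had 2.89 and 2.87; the serp peak overlapped no driver peak. The tracheal transcription factor genes vvl and trh had folds of 2.34 and 1.59, and the FGF receptor gene btl had no summit.

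Gut genes were also bound in 17 of 18 cases, 94.4%, and 2 were strong, 11.1%, against 9.86% of all genes. wg, a Wnt ligand gene, had a fold of 2.77 and bin, a forkhead gene of the visceral mesoderm, had 2.63. Genes of the epidermis and cuticle were bound in 19 of 26 cases, 73.1%, with an exact interval of 52.2 to 88.4 that includes the 62.4% of all genes. In this list 2 genes were strong, 7.69%, against 9.86% of all genes. They were Duox, which encodes an oxidase that crosslinks matrix, with 2.98, and ovo, a regulator of epidermal denticles, with 2.96. grh, a master regulator of epidermal barrier genes, had 2.55 and 7 summits inside the gene, while the denticle genes sha and f were not bound at their ends.

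Genes of other tissues were bound about as often as all genes or less. Neuronal genes were bound in 11 of 20 cases, 55.0%, and muscle genes in 11 of 19, 57.9%. Genes of hemocytes and fat body were bound in 10 of 21, 47.6%. The exact intervals of all 3 lists include 62.4%. Strong genes numbered 2, 3 and 1 in these lists. The strong share of muscle genes was 15.8% (exact interval 3.38 to 39.6), against 9.86% of all genes. Off X it was 17.6%, against 7.35%. Both strong neuronal genes were among the 7 on X, 28.6%, against 23.3% of all X genes, and 0 of 13 off X were strong. In the list of hemocytes and fat body the strong share was 4.76%. elav, an RNA-binding protein gene of neurons, had a fold of 2.92 with its summit 17 bp away, and Appl, a neuronal transmembrane protein gene, had 2.81 at a summit nearer to CG4293. The synaptic vesicle genes nSyb and Syt1 had no summit at their ends. Among muscle genes Tm2, a tropomyosin gene, had 2.85, the values of Mp20 and Mlc2, 3.28 and 2.93, came from summits nearer to other genes, and Mhc, the muscle myosin, was not bound. Over all 6 tissue lists 85 of 122 genes were bound, 69.7%, and 18 were strong, 14.8%, so the trachea held 8 of the 18.

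Regulators of body pattern and signalling were bound in similar shares. Hox genes and cofactors were bound in 10 of 14 cases, 71.4%, segmentation genes in 24 of 33, 72.7%, and genes of signalling receptors and ligands also in 24 of 33, and the exact intervals of all 3 include 62.4%. Their strong shares were 7.14%, 12.1% and 12.1%, against 9.86% of all genes. slp2 and kni, which encode segmentation factors, had folds of 2.82 and 2.73 with no driver peak, and Pvf1, a growth factor gene, had 3.47 in a peak of 2708 bp. Egfr, the EGF receptor gene, had 2.82 at a summit 179 bp away that was nearer to twz. Some of these genes had their summits only deep inside, so that the end rule missed them: Antp held 11, with folds up to 2.74, Abd-B 7, with folds up to 2.59, and dpp 5, with folds up to 2.87.

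Most lists of housekeeping genes were bound widely, mostly at ordinary height. Cytosolic ribosomal protein genes were bound in 81 of 85 cases and mitochondrial ones in 71 of 73, shares of 95.3% and 97.3%, against the 94.4% of the secretory pathway. Their strong shares were 9.41% and 9.59%, next to 9.86% of all genes, and their median folds were 2.14 and 2.06. These shares hid a split by chromosome, since 5 of 13 cytosolic and 5 of 11 mitochondrial genes on X were strong, against 23.3% of all X genes, but only 4.17% and 3.23% of those off X, against 7.35% of all. Against the 62.4% bound and 9.86% strong of all genes, cell cycle genes were bound in 24 of 26 cases, 92.3%, with 2 strong, 7.69%. Polycomb and trithorax genes were bound in 20 of 21, 95.2%, with 3 strong, 14.3%. Genes of cell junctions were bound in 22 of 23, 95.7%, with 1 strong, 4.35%. Genes of the respiratory chain were bound in 64 of 80 cases, 8 of them strong, those of the proteasome in 33 of 48, 2 of them strong, and those of the V-ATPase, the proton pump of acid compartments, in 21 of 29, 5 of them strong. Basement membrane and matrix genes were bound in 12 of 15 cases with 3 strong, and genes of the CREB, ATF and AP-1 bZIP families in 15 of 19 with 2 strong, CrebB and Xbp1. The aminoacyl-tRNA synthetases, which load tRNAs with amino acids, had the highest strong share of these lists. Of 32 genes 29 were bound and 9 were strong, 28.1% (exact interval 13.7 to 46.7), and off X 7 of 29 were strong, 24.1%, against 7.35% of all genes off X. LysRS had a fold of 3.18 with its summit 21 bp away and ArgRS had 3.07.

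The least bound lists were those of chemosensory, chorion and yolk, cuticular, protease, cytochrome P450, male germline and glue genes. Against 62.4% of all genes, odorant, gustatory and ionotropic receptor genes were bound in 25 of 179 cases, 14.0%. Odorant binding protein genes were bound in 10 of 51, 19.6%, and cytochrome P450 genes in 24 of 81, 29.6%. Chorion and yolk genes were bound in 2 of 17 cases, trypsin and Jonah protease genes in 7 of 27, and cuticular protein genes in 23 of 121, 19.0%. Genes of the male germline and seminal fluid were bound in 11 of 28 cases, 39.3%. Yet 5 of them were strong, 17.9%, above the 9.86% of all genes. None of this list lies on X, and off X 7.35% of all genes were strong. Of these 5 strong genes 3, Mst84Db, Mst84Dc and Mst84Dd, shared 1 summit with a fold of 2.91. Of the odorant, gustatory and ionotropic receptor genes 9 were nearest to a summit, 5.03%, against 45.1% of all genes. A few were high all the same: Cpr62Bc, which encodes a chitin-binding cuticle protein, had 3.47, Cyp318a1 had 3.46 and Acp36DE, which encodes a seminal fluid protein, had 3.38, all 3 with no driver peak. The glue genes, which make the larval salivary glue, were bound in 1 of 10 cases. The bound gene was Sgs3, with a fold of 3.34 at a summit inside the gene, 572 bp from an end, in a peak of 2735 bp.

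**Figure D4:**
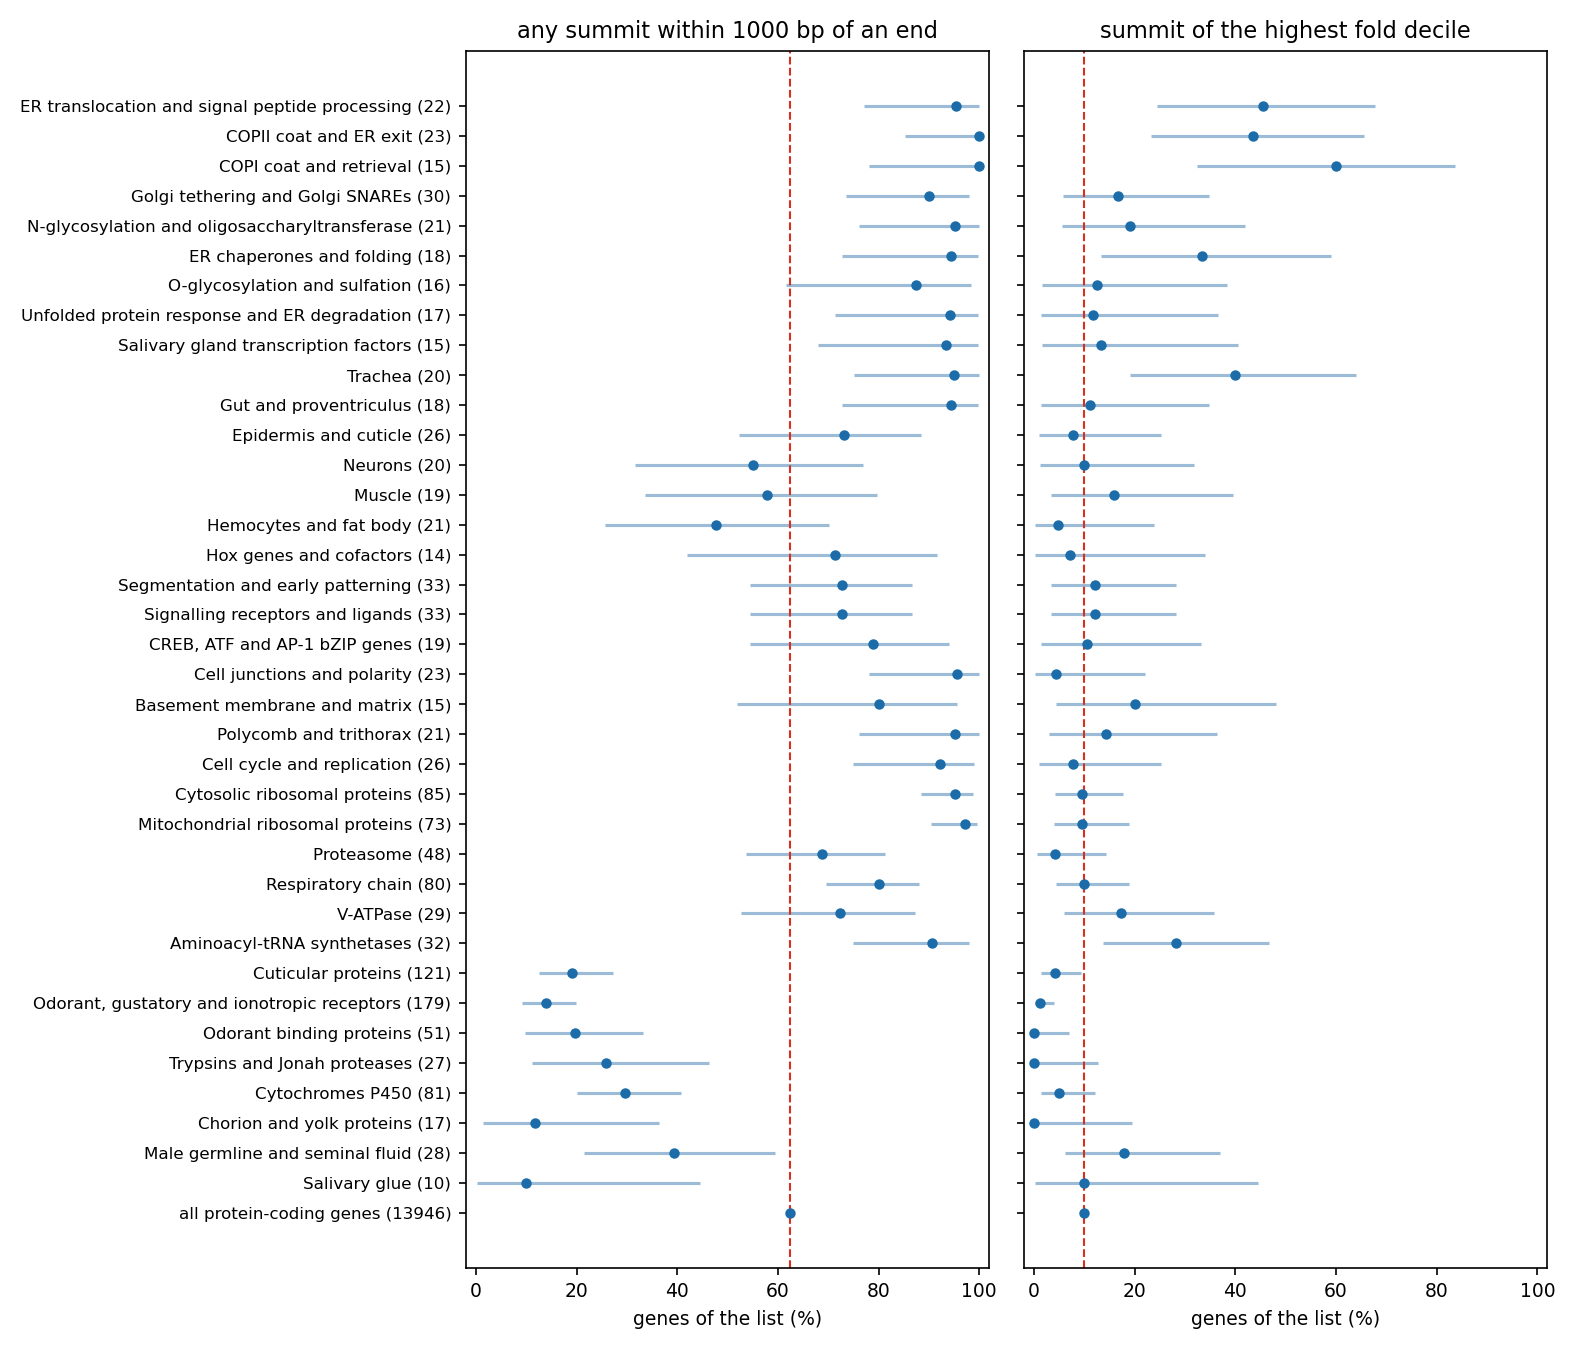
For each list of genes (number of genes in brackets) the left panel gives the percentage with an Oregon R summit within 1000 bp of an end and the right panel the percentage with such a summit of the highest fold decile, with exact 95% intervals. Dashed lines mark all protein-coding genes, 62.4% and 9.86%; ribosomal protein lists lie far right in the left panel and on the line in the right panel, while the COPI, COPII, translocation and trachea lists lie right of the line in both.

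Long genes carried rows of peaks. At least 5 summits between their ends were found in 407 genes, 2.92% of all, and these held 3348 summits, 23.8% of the list. They were long, with a median of 34290 bp against 2161 bp for all genes, and the share with 5 or more was higher in longer genes. It was 0.998% of genes of 5000 to 10000 bp, 26.1% of those of 20000 to 50000 bp and 38.7% of those over 50000 bp. Per 10000 bp the order was the opposite, with 1.48 summits in genes of up to 2000 bp, 0.953 in those of 20000 to 50000 bp and 0.541 in those over 50000 bp. Some long genes held none: 67 of the 313 genes over 50000 bp had no summit inside, among them rdgA and Pde9, which were bound at their ends. Counts of 10 or more were found in 106 genes and of 20 or more in 16. With only peaks of a −log10 q of 10 or more, 44 genes held at least 5.

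The 12 genes with most summits held 24 to 35 each. Eip75B, a nuclear receptor gene induced by the steroid hormone ecdysone, came first with 35 summits over 113744 bp, or 3.08 per 10000 bp, against 0.957 over all genes. Its folds ran from 1.53 to 2.87, and 22 of the 35 overlapped a driver peak. shn, a zinc finger gene of Dpp signalling, held 31 summits in 58309 bp, the densest row of the first 12 at 5.32 per 10000 bp, with folds up to 3.17 and 25 driver overlaps. EcR, the ecdysone receptor gene, held 26 and Hr4, another nuclear receptor gene of the pathway, held 24, and in each of them 19 overlapped driver peaks.

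The remaining genes of the first 12 were alike in count but less so in overlap with the drivers. Glut4EF and CG46467 held the same 30 summits, because the genes overlap, with 12 driver overlaps. bun, a gene of the TSC-22 family, held 28 summits with 20 driver overlaps, and CG1677 held 26, of which 5 were in the highest fold decile. By contrast jing, a zinc finger gene of trachea and glia, held 26 summits with 4 driver overlaps, luna 26 with 7, and hth 24 with 8. The median fold within each of the 12 genes was between 1.65 and 1.91. The number of their summits in the highest fold decile ran from 0 in luna, EcR and sbb to 5 in CG1677. In jing the 1 such summit, at 24800 bp from an end, had a fold of 3.18, against a median of 1.69.

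**Figure D5:**
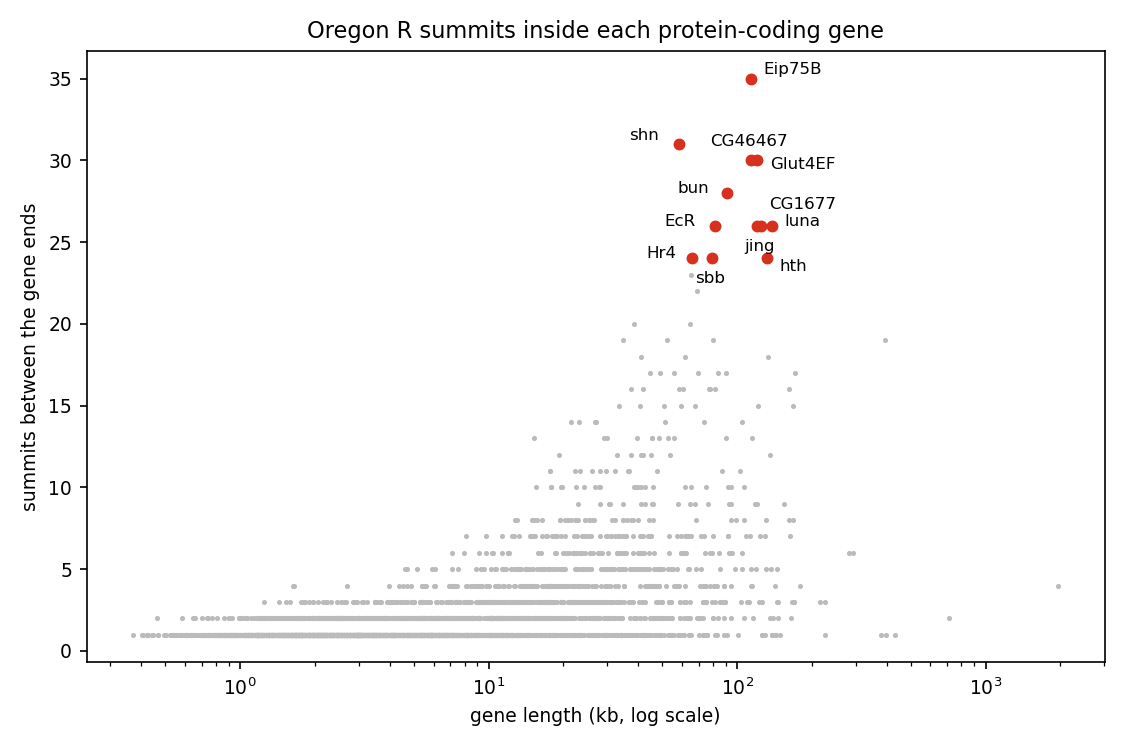
Each point is a protein-coding gene with at least 1 Oregon R summit between its ends, with gene length in kb on a log axis and the number of summits on the vertical axis. The 12 genes with most summits, in red, hold 24 to 35, and some genes of similar length hold 1 or a few.

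Set beside the driver lists, 6291 Oregon R peaks, 44.8%, overlapped a peak of at least 1 driver by 1 bp or more, and 23.9% did so over 50% of both peaks. The share was 26.9% in decile 1 and 62.9% in deciles 8 and 9, and it was 57.7% in decile 10. In the highest decile 810 peaks had a driver peak and 593 had none, by a rule of 1 bp that wide peaks meet more easily, so the widths of the 2 sets are given as a description. Those with a driver peak had a median width of 1545.5 bp, lay at gene ends in 67.9% of cases and between genes in 6.67%. Those without had a median width of 654 bp, lay at gene ends in 54.3% of cases and between genes in 18.0%. The median fold was 2.83 with a driver peak and 2.89 without. Of the 46 strong genes of the secretory pathway, xit was the one without a driver peak.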

How the data were processed

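ChIP-seq libraries of Drosophila melanogaster embryos were represented by the 3 narrowPeak lists that the authors deposited, and input libraries entered through the authors' calls only. BWA, MACS2 2.1.0.20140616 and the build dm6 are named, per the submitters' processing notes, with parameters not given in the sources used here. In the deposited lists the fold is a ratio over the caller's local background, and the authors also deposited −log10 p and −log10 q, a p-value and q-value for each peak. The last deposited column, an other unit, holds the distance in bp between summit and peak start. These are the authors' own values per peak, and served only for description and for ranks inside 1 list. The lists hold no read counts, so depth is unknown. The columns hold 0 samples outside the series.

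Summits were set against 13946 protein-coding genes of NCBI RefSeq, release 6, the assembly dm6. The table gives no strand, exons or introns, so both gene ends were used in place of the transcription start. Where a gene had several summits within 1000 bp of an end, the highest fold was taken. Genes came from 37 lists written for this work, of which 11 symbols were not matched. The members and lists were chosen with earlier results of these data known. Named were the 12 strongest and 12 widest peaks, the 12 genes with most summits, CrebA, and per list up to 4 bound genes of highest fold and 2 unbound in list order; any other named gene was chosen after its values were seen. Intervals are exact Clopper-Pearson intervals at 95%, covering counting error over genes or peaks only. With 1 library per group no test was made. A planned search for motifs in promoters needs sequence, which was not used here. Calculations used pandas 2.3.3, numpy 2.4.6 and scipy 1.17.1 in Python 3.11.15, figures used matplotlib 3.10.9, and the code was tested on simulated data.

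Alternatives were chromosome arms only, the 1000 highest peaks by fold, a minimum −log10 q of 10, windows of 500 and 2000 bp, the nearest gene end only, ranking by −log10 q or p, summits within 1000 bp of each other counted once, and 4 rules of driver overlap.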

Additional observations from a re-analysis of the deposited data

How the results depend on the processing

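Of 41 alternative values, 25 stayed near the reported one and 16 moved, and no rule for a reversal was set. The band for counts was wide. The 5966 genes bound at a minimum −log10 q of 10 still counted as near the 8698 of the whole list. Shares counted as near only inside the exact interval of the reported share. With only the 1000 peaks of highest fold, 969 genes were bound, among them 29 of the secretory pathway and 14 of the tissue lists, and 2 genes held 5 or more summits. The secretory share was then 2.90 times that of all genes, against 1.51 times in the whole list and 1.98 times at a minimum −log10 q of 10. The share of summits at gene ends was 68.2% at that minimum, 61.5% for the 1000 highest peaks, and 44.5% and 63.4% with windows of 500 and 2000 bp. Strong secretory genes numbered 28 without chromosome X and 18 on X only, both chosen after seeing the data, as were the ranking within each chromosome, which gave 45, and the count of multi-peak genes without chromosome 4, which gave 391. Genes with 5 or more summits numbered 44 at that minimum, and 267 when summits within 1000 bp of each other were counted once. The driver overlap was 23.9% with a reciprocal overlap of 50%, 32.1% with summits within 150 bp, 27.7% for a peak in both driver lists and 24.98% with that minimum in every list. Of the 12 strongest peaks, 10 were among the first 12 by q and 10 by p, although 9 peaks tie at the highest q and further ties straddle the twelfth place.

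No paired analysis was possible because each group has 1 library and the result comes from no test. The planned motif alternatives were not run. Depth behind the folds is unknown, and the spread between libraries cannot be estimated.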

Other observations

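Genes that make no protein were bound by the same rule at their own rates. The 290 tRNA genes had a summit within 1000 bp of an end in 214 cases, 73.8%, against 62.4% of protein-coding genes. Only 6 of them, 2.07%, had one of the highest fold decile, against 9.86% of protein-coding genes. Genes of miRNAs were bound less often, in 73 of 260 cases, 28.1%, and 14 of them, 5.38%, had a summit of the highest decile. Genes of snoRNAs were bound in 101 of 269 cases, 37.5%, and long non-coding RNA genes in 600 of 1995, 30.1%. These classes were not counted apart from protein-coding neighbours, so 1 summit can count for both.

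Some short genes carried dense rows of peaks. Wwox, a tumour suppressor homologue, held 5 summits in 4617 bp, 10.8 per 10000 bp, the highest density of the genes with 5 or more summits. CG14434 held 13 in 15286 bp, 8.50 per 10000 bp.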
